A study of Mus musculus with 6 samples.

Results

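Aminoacyl-tRNA synthetases are the enzymes that join each amino acid to its own transfer RNA, and they are described here in mouse cortical cultures with knockdown of Neurod2, a neuronal transcription factor of the basic helix-loop-helix family. The list holds 37 genes, 21 for enzymes of the cytosol and 16 for enzymes of the mitochondrion, whose names end in 2. A gene was found where a locus of the deposited table overlapped its annotated span by at least 0.5 of their union, and 33 genes were found in this way among 32357 loci, 19 of them cytosolic and 14 mitochondrial. The loci of the other 4 genes, Farsb, Yars, Iars2 and Mars2, reached less overlap and are given apart from the counts.

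Cells of the cerebral cortex were taken from Balb/c mouse embryos at E14.5, nucleofected with an shRNA plasmid in the pSuperneoGFP backbone and plated in medium with 10% serum. The knockdown group holds 4 libraries, 2 of Neurod2 shRNA-1 and 2 of Neurod2 shRNA-2, and the control group holds 2 libraries of a non-silencing shRNA. RNA was taken at 4 days in vitro by the sample labels, and a day later by the study's methods. No sort for transfected cells is described in the sources used here, so a value is that of the whole culture, in which fewer cells of a type and less RNA per cell cannot be told apart.

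The deposited table gives 1 FPKM value per locus for the pooled knockdown group and 1 for the non-silencing group. FPKM counts fragments relative to transcript length and library size, so levels may be set side by side between genes. With 1 pooled value per group there is no spread between libraries, no standard error and no test, and the depth behind a value is unknown. Every difference is therefore a description of these 2 group values, which cannot be separated from library error or from the action of either shRNA alone. Neurod2 itself stood at 60.3 FPKM in the knockdown group and at 105 FPKM in the non-silencing group, a log2 ratio of -0.80. The log2 ratio of knockdown over non-silencing had a median of -0.03 over the 12625 loci whose 2 values averaged 1 FPKM or more.

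Cytosolic and mitochondrial translation use separate sets of synthetases, nearly all of them encoded in the nucleus by separate genes. The enzymes fall into classes I and II by the fold of their catalytic domain. In animals 8 of the cytosolic genes listed here make enzymes that sit together in the multi-synthetase complex, on the scaffold proteins Aimp1, Aimp2 and Eef1e1, and the others work outside it. The genes Gars and Kars make the cytosolic and the mitochondrial enzyme from the same gene, and mitochondria have no glutaminyl-tRNA synthetase of their own. When amino acids are short, uncharged tRNA activates the kinase GCN2, and the transcription factor ATF4, paired with a C/EBP protein, then switches on genes for amino acid synthesis, amino acid uptake and tRNA charging.

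A gene was counted as lower where its knockdown value was under 0.8 of its non-silencing value (lower by over 20%), and as higher where it exceeded the non-silencing value by over 25%, which is the same step on the log2 scale. Of the 19 cytosolic genes, 17 had a lower value in the knockdown group, and 6 of them, Cars, Aars, Gars, Nars, Mars and Lars, were lower by over 20%. Of the 14 mitochondrial genes, 6 had a lower value in the knockdown group and 0 were lower by over 20%. Over all loci that averaged 1 FPKM or more, 58.4% had a lower value in the knockdown group. Lars2 was higher by over 25%, and it was the only member to be so. Among all loci that averaged 1 FPKM or more, 5.61% were lower by over 20% and 4.11% were higher by over 25%. The median log2 ratio was -0.21 for the cytosolic genes and 0.01 for the mitochondrial genes, a difference of medians of -0.22.

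**Figure D1:**
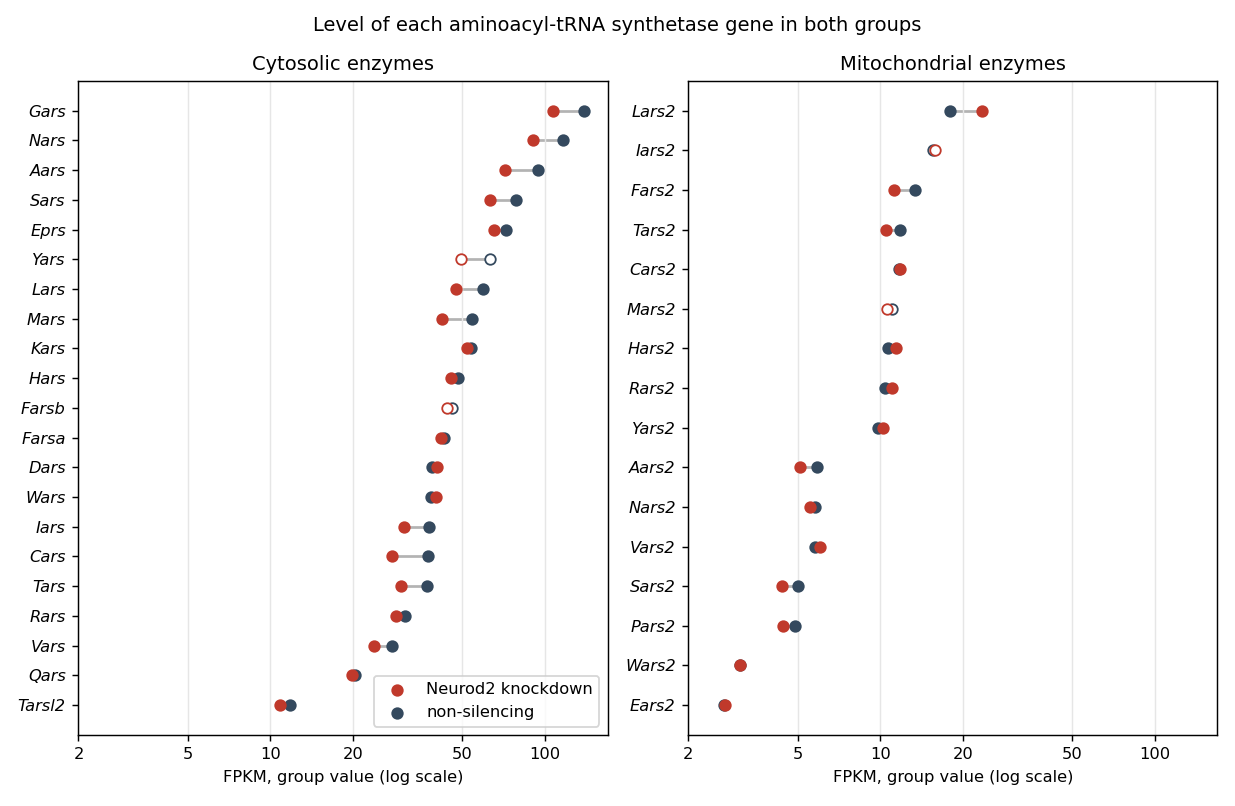
FPKM (log axis) of each gene in the Neurod2 knockdown group (red) and in the non-silencing group (dark blue), cytosolic enzymes on the left and mitochondrial enzymes on the right, ordered by the non-silencing value; each point is 1 pooled group value with no error, and open points mark the 4 genes whose loci overlap too little. The cytosolic points span 10.9 to 107 FPKM in the knockdown group and 11.8 to 139 FPKM in the non-silencing group, and the red points lie left of the blue ones for 17 of the 19 cytosolic genes found by the overlap rule.

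The 6 cytosolic genes lower by over 20% serve 6 different amino acids. Cars, the enzyme for cysteine, had 27.8 FPKM in the knockdown group and 37.7 FPKM in the non-silencing group, a ratio of 0.738 and a log2 ratio of -0.44. Aars, the enzyme for alanine, had 71.6 FPKM in the knockdown group and 94.7 FPKM in the non-silencing group, a ratio of 0.756. Gars, for glycine, had the highest level of all members, at 107 FPKM in the knockdown group and 139 FPKM in the non-silencing group, a ratio of 0.772. Changes in the human genes for the alanine, glycine and tyrosine enzymes are known to cause inherited neuropathy of the peripheral nerves.

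Nars, the enzyme for asparagine, had 90.9 FPKM in the knockdown group and 117 FPKM in the non-silencing group, a ratio of 0.776. Mars, the methionine enzyme that also charges the initiator tRNA, had 42.4 FPKM in the knockdown group and 54.3 FPKM in the non-silencing group, a ratio of 0.780. Lars, the leucine enzyme, which in human cells also takes part in sensing leucine for mTORC1, had 47.4 FPKM in the knockdown group and 59.8 FPKM in the non-silencing group, a ratio of 0.793. Between them, the 6 genes spanned a narrow range of ratios, and the log2 ratio of Lars, the nearest to the limit, was -0.33.

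In the annotation of GRCm38, Cars spans chr7:143557230-143600090, Mars chr10:127296221-127311786, Lars chr18:42202298-42262194 and Nars chr18:64499647-64516652, each on the minus strand. Aars spans chr8:111033144-111057664 and Gars chr6:55038007-55079500, both on the plus strand.

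The next genes lay just inside the limit of 0.8, so the limit divides a continuous series. Tars, the enzyme for threonine, had 29.9 FPKM in the knockdown group and 37.2 FPKM in the non-silencing group, a ratio of 0.806. Sars, for serine, had 63.4 FPKM in the knockdown group and 78.6 FPKM in the non-silencing group, a ratio of 0.807. Iars, for isoleucine, had 30.7 FPKM in the knockdown group and 37.9 FPKM in the non-silencing group, a ratio of 0.811. With a limit of 1.2-fold (a ratio under 0.833), chosen after the values were seen, 9 of the 19 cytosolic genes and 0 of the 14 mitochondrial genes were lower, beside 8.03% of all loci. A limit of 1.5-fold (a ratio under 0.667) was also read, which the study used together with a limit on the false discovery rate. By fold alone, 0 genes of either class were lower, beside 2.09% of all loci. This count takes the more abundant of 2 Cars rows on its strand, and the other, at a ratio of 0.520, lay under that limit.

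Most cytosolic genes stood at levels far above the lower limit of 1 FPKM, so they may also be read against loci of a like level. Among the 4398 loci that averaged 20 FPKM or more, 5.53% were lower by over 20% and 7.34% by over 1.2-fold. All 6 genes below the limit of 0.8 belong to that set of loci. Their log2 ratios lay near the lower end of the whole table, since 3.29% of loci had a lower ratio than Cars and 5.20% a lower ratio than Lars.

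The remaining cytosolic genes differed little between the groups. Vars, for valine, had 23.9 FPKM in the knockdown group and 27.7 FPKM in the non-silencing group, a log2 ratio of -0.21. Eprs, a bifunctional enzyme for glutamate and proline, had 65.2 FPKM in the knockdown group and 72.0 FPKM in the non-silencing group, a log2 ratio of -0.14. Tarsl2, a relative of Tars that also charges threonine in the cytosol, was the least abundant cytosolic member, at 10.9 FPKM in the knockdown group and 11.8 FPKM in the non-silencing group. These genes leaned the same way as the previous ones, with smaller differences.

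Rars, the arginine enzyme, had 28.8 FPKM in the knockdown group and 31.0 FPKM in the non-silencing group. Hars, for histidine, had 45.5 FPKM in the knockdown group and 48.2 FPKM in the non-silencing group. Kars, for lysine, had 52.0 FPKM in the knockdown group and 54.0 FPKM in the non-silencing group. The log2 ratios of these genes lay between -0.11 and -0.06, with 30.5% of all loci below Rars and 43.3% below Kars.

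Farsa, the catalytic subunit of the phenylalanine enzyme, had 41.8 FPKM in the knockdown group and 43.0 FPKM in the non-silencing group. Qars, for glutamine, had 19.9 FPKM in the knockdown group and 20.4 FPKM in the non-silencing group. Dars, for aspartate, and Wars, for tryptophan, were the only cytosolic genes with the higher value in the knockdown group. Dars had 40.4 FPKM in the knockdown group and 39.0 FPKM in the non-silencing group, a log2 ratio of 0.05. Wars, an enzyme that interferon gamma is known to induce, had 40.1 FPKM in the knockdown group and 38.6 FPKM in the non-silencing group, a log2 ratio of 0.06.

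Mitochondrial genes stood at lower levels in the median. Their median level was 8.16 FPKM in the knockdown group and 7.86 FPKM in the non-silencing group, beside medians of 41.8 FPKM in the knockdown group and 43.0 FPKM in the non-silencing group for the cytosolic genes. Summed over the genes found, the mitochondrial class came to 121 FPKM in the knockdown group and 119 FPKM in the non-silencing group, whereas the cytosolic class came to 880 FPKM in the knockdown group and 1042 FPKM in the non-silencing group. The sums of the mitochondrial class were nearly equal, and the cytosolic sum was the lower one in the knockdown group.

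Lars2, the mitochondrial leucine enzyme, was the most abundant mitochondrial member and the only one past either limit. It had 23.4 FPKM in the knockdown group and 18.0 FPKM in the non-silencing group, a ratio of 1.30 and a log2 ratio of 0.38. Of all loci, 96.8% had a lower ratio. Changes in the human genes for the leucine and histidine enzymes of mitochondria are known from Perrault syndrome, in which hearing and ovarian function fail. Hars2, the mitochondrial histidine enzyme, had 11.4 FPKM in the knockdown group and 10.7 FPKM in the non-silencing group, a log2 ratio of 0.09.

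Several further mitochondrial genes had nearly equal values in both groups. Rars2, known in people from pontocerebellar hypoplasia, had 11.0 FPKM in the knockdown group and 10.4 FPKM in the non-silencing group. Yars2, the tyrosine enzyme, had 10.3 FPKM in the knockdown group and 9.83 FPKM in the non-silencing group. Vars2, for valine, had 6.04 FPKM in the knockdown group and 5.78 FPKM in the non-silencing group. Each was slightly higher in the knockdown group, with log2 ratios of 0.06 to 0.08.

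Cars2, for cysteine, had 11.8 FPKM in the knockdown group and 11.7 FPKM in the non-silencing group. Wars2, for tryptophan, had 3.09 FPKM in the knockdown group and 3.08 FPKM in the non-silencing group. Ears2, which charges glutamate, was the least abundant member of all, with 2.71 FPKM in the knockdown group and 2.69 FPKM in the non-silencing group. The log2 ratios of these genes were 0.01.

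The mitochondrial genes with a lower value in the knockdown group stayed inside the limit of 0.8. Fars2, the phenylalanine enzyme, had the largest difference among them, with 11.3 FPKM in the knockdown group and 13.4 FPKM in the non-silencing group, a log2 ratio of -0.25. Aars2, for alanine, had 5.11 FPKM in the knockdown group and 5.89 FPKM in the non-silencing group. Sars2, for serine, had 4.39 FPKM in the knockdown group and 5.02 FPKM in the non-silencing group. The last of these genes were close to each other, with log2 ratios of -0.20 for Aars2 and -0.19 for Sars2.

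Tars2, for threonine, had 10.5 FPKM in the knockdown group and 11.8 FPKM in the non-silencing group. Pars2, for proline, had 4.44 FPKM in the knockdown group and 4.91 FPKM in the non-silencing group. Nars2, for asparagine, had 5.53 FPKM in the knockdown group and 5.79 FPKM in the non-silencing group. The log2 ratios were -0.17 for Tars2, -0.14 for Pars2 and -0.07 for Nars2.

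**Figure D2:**
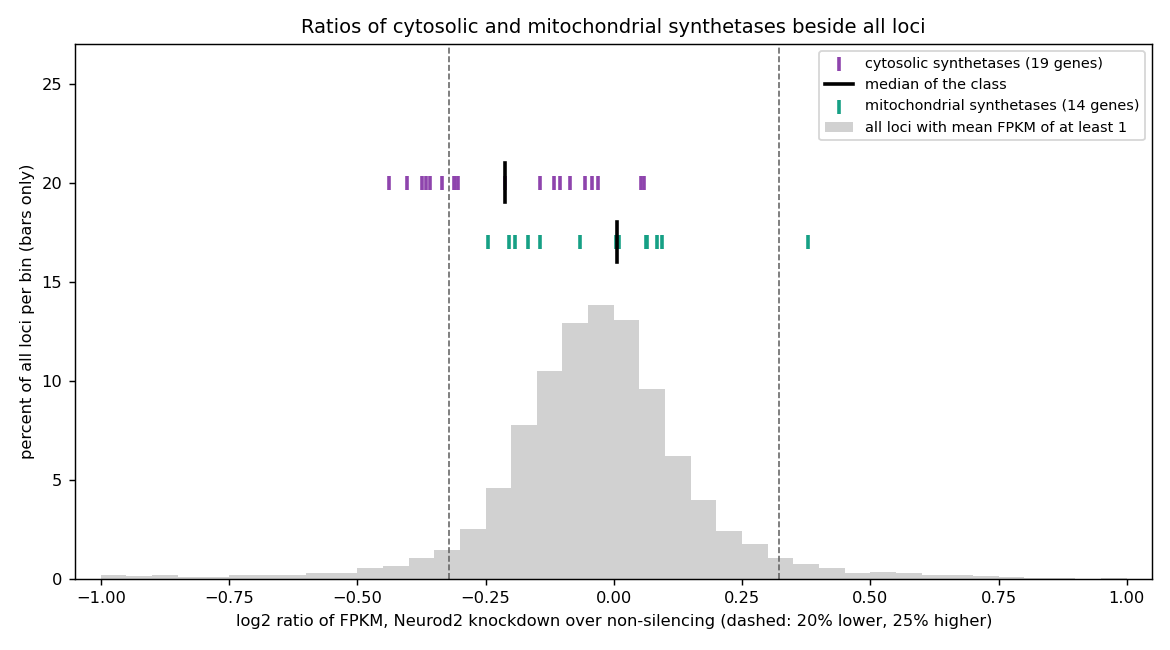
Log2 ratio of FPKM, Neurod2 knockdown over non-silencing, for the 19 cytosolic (purple ticks) and 14 mitochondrial genes (green ticks), above the distribution of the ratio over all loci that averaged 1 FPKM or more (grey bars, percent of loci per bin; 1.37% of loci fall outside the plotted range). Black bars mark the class medians, -0.21 for the cytosolic and 0.01 for the mitochondrial genes, and dashed lines mark values 20% lower and 25% higher.

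Enzymes for the same amino acid were set side by side where the names pair a cytosolic with a mitochondrial gene of the list. In 11 such pairs both genes were found by the overlap rule, and in 9 of them the log2 ratio of the cytosolic gene lay below that of the mitochondrial gene. The median difference between the log2 ratios of a pair was -0.19. The leucine pair stood furthest apart, with -0.33 for Lars and 0.38 for Lars2, a difference of -0.71. The cysteine pair followed, with -0.44 for Cars and 0.01 for Cars2.

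The exceptions were the phenylalanine and the tryptophan pairs. Farsa had a log2 ratio of -0.04 and Fars2 one of -0.25, so here the mitochondrial gene was the lower one, and Wars and Wars2 had log2 ratios of 0.06 and 0.01. For alanine, serine and threonine, the mitochondrial gene was also lower in the knockdown group, by less than its cytosolic partner: the differences between the log2 ratios of these pairs were -0.20, -0.12 and -0.14.

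The cytosolic gene of a pair had the higher level in each of the 11 pairs, by 2.02 to 16.4 times in the knockdown group and by 2.99 to 20.2 times in the non-silencing group. Nars and Nars2 gave the widest gap between levels, at 16.4 times in the knockdown group and 20.2 times in the non-silencing group. Lars and Lars2 differed in direction, and the level of Lars was 2.02 times that of Lars2 in the knockdown group and 3.32 times in the non-silencing group.

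**Figure D3:**
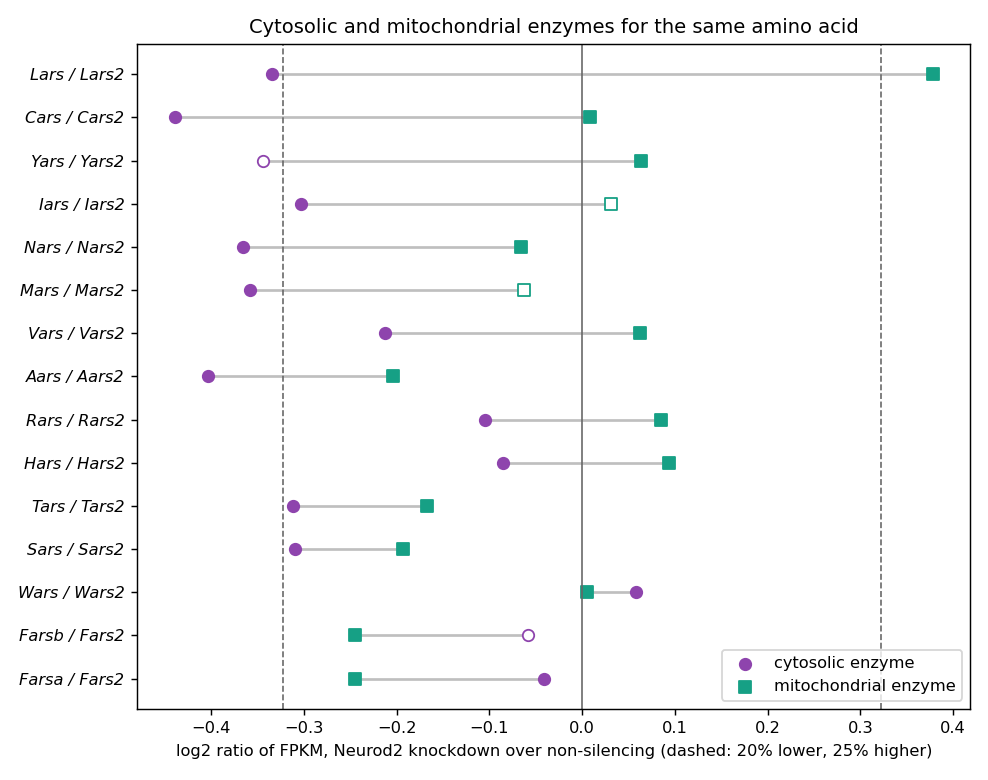
Log2 ratio of FPKM, Neurod2 knockdown over non-silencing, for cytosolic (purple circles) and mitochondrial enzymes (green squares) of the same amino acid; open symbols are genes whose loci overlap too little, Fars2 is drawn against both subunit genes of the cytosolic enzyme, and dashed lines mark values 20% lower and 25% higher. In 9 of the 11 pairs with both genes found, the circle lies left of the square, and the leucine pair is the widest.

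Members were also grouped by how the enzymes are built and where they sit. Of the 8 enzymes of the multi-synthetase complex, 2, Mars and Lars, were lower by over 20%, beside 5.61% of all loci. The median log2 ratio over the complex members was -0.12. Of the 11 cytosolic genes found whose enzymes work outside the complex, 4, Cars, Aars, Gars and Nars, were lower by that fold, with a median of -0.31. Complex members with ratios near 0, such as Dars, Kars and Qars, stood beside Mars and Lars in the same complex.

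The genes were also split by catalytic class. Eprs, which joins an enzyme of each class in 1 protein, was left out of this split. Among the other cytosolic genes, 3 of 8 of class I and 3 of 10 of class II were lower by over 20%. Of all loci, 5.61% were lower by that fold. Median log2 ratios were -0.26 for the cytosolic genes of class I and -0.21 for those of class II. Among mitochondrial genes, 0 of 7 of class I had a lower value in the knockdown group, with a median of 0.06. For class II, 6 of 7 had one, with a median of -0.17, beside the 58.4% of all loci with a lower value. Iars2 and Mars2, also of class I, missed the overlap rule and are not in these counts. Their log2 ratios were 0.03 and -0.06, so Mars2 had a lower value in the knockdown group. These splits describe the 2 group values only, and no test of them was possible.

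Cytosolic genes with a mitochondrial partner of the same name had a median log2 ratio of -0.31 over 13 genes. Of these, 5 were lower by over 20%, beside 5.61% of all loci. The 6 cytosolic genes not paired in this way, Dars, Eprs, Gars, Kars, Qars and Tarsl2, had a median of -0.09, and only Gars among them was lower by over 20%. Gars and Kars, which each serve the cytosol and the mitochondrion, stood apart from each other, with log2 ratios of -0.37 and -0.06.

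Some loci share their position with another row of the table, and the row on the strand of the gene was taken. The table gives no strand, but its locus numbers run along each chromosome first over the plus and then over the minus strand, and this order gave the annotated strand for 100% of 14071 loci that hold a single gene. Cars had 2 rows on its own strand, of which the more abundant is given above. The other Cars row had 18.0 FPKM in the knockdown group and 34.5 FPKM in the non-silencing group, a log2 ratio of -0.94. It too was lower in the knockdown group, by more than the first.

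The Mars locus also spans Ddit3, the gene of the stress factor CHOP, on the opposite strand, and the row of that strand had 17.6 FPKM in the knockdown group and 33.7 FPKM in the non-silencing group. At the Lars locus, the row of the opposite strand, which holds the pseudogene Rps19-ps4, had 97.2 FPKM in the knockdown group and 119 FPKM in the non-silencing group, a log2 ratio of -0.30. At the Vars locus the row of the opposite strand had 9.45 FPKM in the knockdown group and 11.1 FPKM in the non-silencing group. No source used here states that the libraries kept strand, and without strand the reads of overlapping genes cannot be told apart, so how far the values of Mars, Lars and Vars hold reads of their neighbours was not tested. Small RNA genes are annotated inside the loci of Aars and Cars, among others. Without loci that overlap another protein-coding gene or hold a small RNA gene, 10 cytosolic genes were left. Of these, 3, Gars, Lars and Nars, were lower by over 20%. Lars and Vars stayed among the 10, although each shares its position with the opposite-strand row given above. Over all loci, shared ones included, 5.61% were lower by that fold.

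Further rows share the positions of other members. A row on the opposite strand of Wars2, with a microRNA gene inside, had 9.10 FPKM in the knockdown group and was listed at 0 in the non-silencing group. One on the opposite strand of Nars2 had 0.153 FPKM in the knockdown group and 0.0809 FPKM in the non-silencing group. The other Farsa row was listed at 0 in both groups.

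The 4 genes with less overlap were read from the row on their own strand. Yars, the tyrosine enzyme, shares a bundled locus with C77080 on the opposite strand, and had 49.6 FPKM in the knockdown group and 63.0 FPKM in the non-silencing group, a ratio of 0.788. Farsb, the other subunit of the phenylalanine enzyme, had 44.2 FPKM in the knockdown group and 46.1 FPKM in the non-silencing group, close to the values of Farsa. With these genes counted, 7 of 21 cytosolic genes were lower by over 20%, beside 5.61% of all loci.

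Iars2, the mitochondrial isoleucine enzyme, had 15.9 FPKM in the knockdown group and 15.5 FPKM in the non-silencing group, and Mars2, the mitochondrial methionine enzyme, had 10.6 FPKM in the knockdown group and 11.0 FPKM in the non-silencing group. The Iars2 position holds 4 more rows, all on the opposite strand, where Rab3gap2 and several small RNA genes lie. The most abundant had a log2 ratio of 0.02, the next had 6.89 FPKM in the knockdown group and 0.656 FPKM in the non-silencing group, another had 5.71 FPKM in the knockdown group and was listed at 0 in the non-silencing group, and the last was listed at 0 in both groups. Neither Iars2 nor Mars2 passed a limit on its own strand, and the mitochondrial count stayed at 0 of 16.

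The promoters of the members were searched for TGATGNAA on either strand, the core of the composite site to which ATF4 paired with a C/EBP protein binds, in the RefSeq windows of GRCm38.p6, which reach from 250 bases before to 50 bases after a start. A window was found for 28 members, 14 of each class. The match occurred in 5 of 14 cytosolic and in 0 of 14 mitochondrial windows, and in 3.97% of all 32851 windows of the table. The 5 genes were Aars, with 2 matches, Gars, Iars, Tars and Yars. Stretches around these matches are shown because the motif was found in no mitochondrial window, and that of Asns, the asparagine synthetase gene, is shown beside them as a known target of the amino acid response, chosen after its values were seen. They run 5′ to 3′ on the strand of the gene, with the match in capitals:
Aars, chr8:111033670-111033767, plus strand, match 112 bases before the start: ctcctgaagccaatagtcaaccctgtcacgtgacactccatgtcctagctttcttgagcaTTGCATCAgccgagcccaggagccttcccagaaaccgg
Aars, chr8:111033791-111033869, plus strand, match at base 10 after the start: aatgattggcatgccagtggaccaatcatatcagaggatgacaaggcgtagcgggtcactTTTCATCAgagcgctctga
Gars, chr6:55037911-55038000, plus strand, match 30 bases before the start: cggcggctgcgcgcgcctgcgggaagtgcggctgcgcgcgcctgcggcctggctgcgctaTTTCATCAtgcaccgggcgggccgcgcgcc
Iars, chr13:49682077-49682155, plus strand, match at base 8 after the start: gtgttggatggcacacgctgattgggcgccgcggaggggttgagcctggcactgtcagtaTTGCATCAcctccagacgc
Tars, chr15:11399659-11399733, minus strand, match 15 bases before the start: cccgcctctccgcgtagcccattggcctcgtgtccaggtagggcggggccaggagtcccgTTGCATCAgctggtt
Yars, chr4:129189846-129189924, plus strand, match at base 4 after the start: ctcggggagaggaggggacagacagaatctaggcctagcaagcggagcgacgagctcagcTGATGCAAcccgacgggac
Asns, chr6:7693210-7693292, minus strand, match 23 bases before the start: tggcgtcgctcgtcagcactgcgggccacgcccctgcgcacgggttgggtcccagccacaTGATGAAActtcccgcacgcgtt

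Read beside the expression values, the cytosolic genes with a match had log2 ratios from -0.40 to -0.30, with a median of -0.34. Of these, Aars and Gars were counted as lower by over 20%, Iars and Tars lay just inside the limit, and Yars passed it at a locus with too little overlap. The 9 cytosolic genes with a window and no match, Dars, Eprs, Farsa, Farsb, Kars, Mars, Qars, Sars and Tarsl2, had log2 ratios from -0.36 to 0.05, with a median of -0.06. The ranges overlap at Mars and Sars, which had ratios of 0.780 and 0.807 with no match in these windows. A match is a run of letters and not a measured binding site, and 9 members, Cars, Hars, Lars, Nars, Rars, Vars, Wars, Hars2 and Pars2, had no window in the table.

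**Figure D4:**
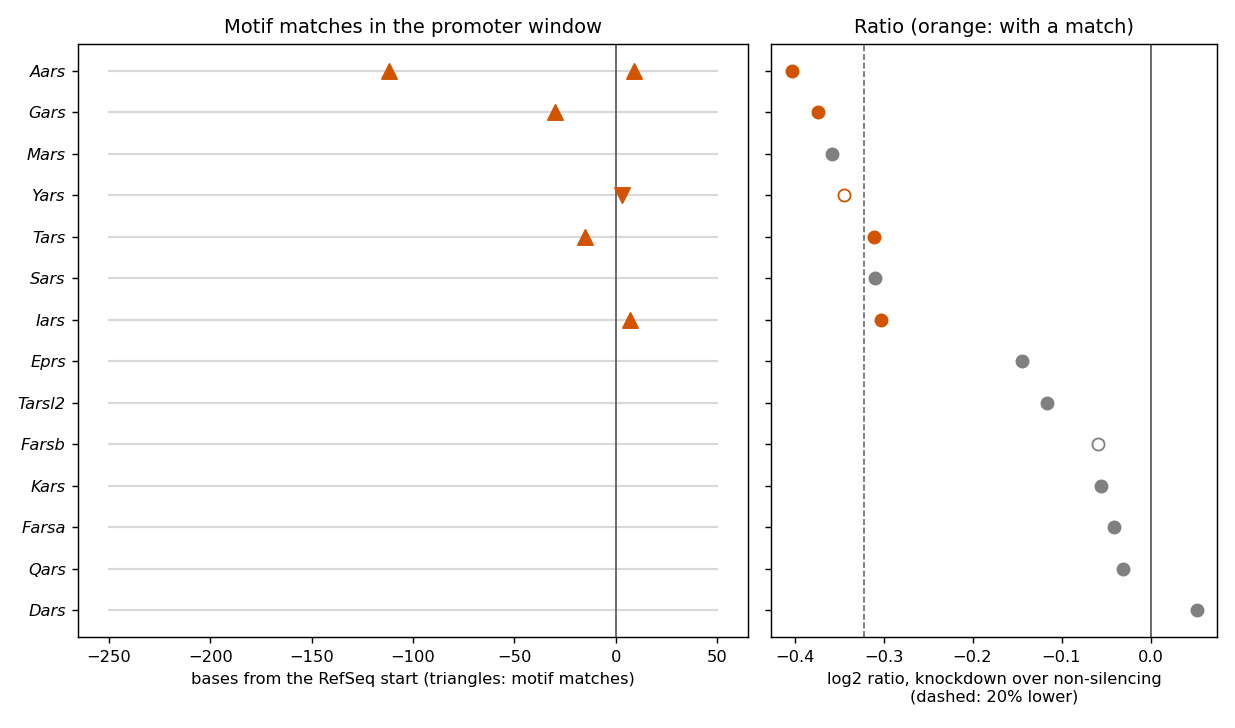
Left, position of each TGATGNAA match (triangles, pointing down for the forward and up for the reverse orientation) in bases from the RefSeq start for the 14 cytosolic genes with a window; right, log2 ratio of FPKM, Neurod2 knockdown over non-silencing, of the same gene, orange with a match and grey without, open where the locus overlaps too little. The 5 genes with a match lie between -0.40 and -0.30, and the genes from Eprs to Dars have none.

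Genes that work with the synthetases were read in the same way. Of 12 complex scaffolds and tRNA partners, 8 were found, and 0 passed a limit in either direction, with a median log2 ratio of -0.08. Xpot, which carries tRNA out of the nucleus, had 15.5 FPKM in the knockdown group and 19.2 FPKM in the non-silencing group, a log2 ratio of -0.31. Aimp1, a scaffold of the multi-synthetase complex, had 40.8 FPKM in the knockdown group and 49.9 FPKM in the non-silencing group, a log2 ratio of -0.29. Mtfmt, which formylates the mitochondrial initiator tRNA, had 6.30 FPKM in the knockdown group and 5.40 FPKM in the non-silencing group.

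Elongation and other translation factors were compared next. Of 5 cytosolic elongation factors found, 0 were lower by over 20%, beside 5.61% of all loci. Eef1d, an exchange factor subunit, had 41.1 FPKM in the knockdown group and 49.8 FPKM in the non-silencing group. Eef2, the translocation factor, had 5102 FPKM in the knockdown group and 2440 FPKM in the non-silencing group, at a locus with the small nucleolar RNA gene Snord37 inside, whose part in the value was not tested. Of 8 mitochondrial translation factors found, 0 passed a limit in either direction, with a median log2 ratio of -0.02.

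The list of amino acid response genes, which was chosen with results of these data known, was mostly lower. Of 20 genes that averaged 1 FPKM or more, 17 were lower by over 20% and 0 higher by over 25%. By over 1.5-fold, 10 were lower, and the median log2 ratio was -0.57. Over all loci, the shares were 5.61% lower by over 20%, 4.11% higher by over 25% and 2.09% lower by over 1.5-fold. Pck2, the mitochondrial PEP carboxykinase, had 4.32 FPKM in the knockdown group and 9.23 FPKM in the non-silencing group. Slc7a3, a transporter of cationic amino acids, had 15.1 FPKM in the knockdown group and 31.8 FPKM in the non-silencing group. Eif4ebp1, a repressor of cap-dependent translation, had 11.2 FPKM in the knockdown group and 23.1 FPKM in the non-silencing group, and Trib3, a pseudokinase, had 0.971 FPKM in the knockdown group and 1.97 FPKM in the non-silencing group. Asns had 86.2 FPKM in the knockdown group and 132 FPKM in the non-silencing group. The log2 ratios of these 5 genes, -1.09, -1.07, -1.04, -1.02 and -0.61, lay below those of the synthetase rows counted above, while the other Cars row, at -0.94, lay below Asns.

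Markers of cell types were read to describe the culture. Neuron markers were abundant, with a summed level of 2282 FPKM in the knockdown group and 2146 FPKM in the non-silencing group over 9 genes found, and 0 of them passed a limit. Astrocyte markers summed to 209 FPKM in the knockdown group and 222 FPKM in the non-silencing group, oligodendrocyte lineage markers to 104 FPKM in the knockdown group and 110 FPKM in the non-silencing group, and progenitor and cell cycle markers to 198 FPKM in the knockdown group and 204 FPKM in the non-silencing group. Gfap, of astrocytes, had 35.1 FPKM in the knockdown group and 57.4 FPKM in the non-silencing group, whereas the other 3 astrocyte markers above 1 FPKM stayed inside the limits. Pdgfra and Sox10, of the oligodendrocyte lineage, had 8.17 and 1.96 FPKM in the knockdown group, against 10.3 and 2.76 FPKM in the non-silencing group. Fibroblast and mural markers summed to 7.09 FPKM in the knockdown group and 4.40 FPKM in the non-silencing group. Within this list, only Dcn and Pdgfrb averaged 1 FPKM or more. Dcn had 1.56 FPKM in the knockdown group and 1.55 FPKM in the non-silencing group, and Pdgfrb 1.38 and 1.56 FPKM. Among the others, Col1a1 had 0.975 and 0.125 FPKM and Col3a1 0.765 and 0.171 FPKM in the same groups. Acta2 had 1.28 and 0.409 FPKM and Postn 0.834 and 0.262 FPKM. Col1a2 had 0.152 and 0.150 FPKM, and Lum was lower in the knockdown group, with 0.138 and 0.165 FPKM. The sums of microglia and endothelial markers lay at or under 0.519 FPKM in either group, with Cdh5 listed at 0 in both groups. The part of these cell types in the synthetase values was not tested.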

How the data were processed

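Per the labels and the study's methods, 50 bp single-end reads were mapped to mm10 with TopHat, assembled with Cufflinks and compared with Cuffdiff by the authors; versions and strandedness were not given in the sources used here. For each locus and group, the authors deposited 1 FPKM value, with replicates pooled. The deposited log2 fold change, test statistic, p-value and q-value are the authors' comparison and were not used as results. A spreadsheet had stored many cells as times (hours and minutes in place of whole part and decimals). Where both cells of a locus had only 1 possible reading, it was taken without a further check. Otherwise the cells were restored to the numbers whose ratio gave the deposited log2 value within 2e-05, the only use of that column. In this way 4955 loci were restored and 87 stayed unresolved. Tested on 2488 loci altered by simulation, the step gave back 99.8% rightly and 0 wrongly. The simulation stored cells by the same assumed format and left the log2 value unaltered. It therefore could not test whether the deposited cells follow that format. Of the 33 synthetases found, 13 rest on a restored cell, among them 10 of the 14 mitochondrial ones and Qars, Tarsl2 and Vars.

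Loci were named with GENCODE M21 (GRCm38, the assembly of mm10) at an overlap of at least 0.5 of the union. Log2 ratios of knockdown over non-silencing were computed from FPKM without a pseudocount, for loci above 0 in both groups with a mean FPKM of at least 1. No test was possible with 1 value per group, so members past 1.25-fold (20% lower or 25% higher) were counted beside the share of all loci past it. Every member is named, members past 1.25-fold get a sentence each, and of other lists up to 4 genes with the largest ratios. Asns, Cdh5 and the fibroblast and mural markers are named outside that rule. Promoter sequences are from RefSeq (GRCm38.p6), matched by symbol, and for Mars by its newer name Mars1. Members and lists were chosen with earlier results of these data known. Replicates are not stated to be separate cultures. Python 3 scripts used numpy and matplotlib.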

Additional observations from a re-analysis of the deposited data

How the results depend on the processing

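The cytosolic count of 6 genes lower by over 20% ranged from 5 to 9 under the other settings except for 2. It was 3 of the 10 genes left (Gars, Lars and Nars) when loci that overlap another protein-coding gene or hold a small RNA gene were left out. With a limit of 1.5-fold it was 0, beside 2.09% of all loci. Neither setting could raise the count, but how far it fell was not fixed in advance. The count at 1.5-fold rests on the more abundant Cars row, and the other Cars row, with a ratio of 0.520, passed that limit. The count was 5 after centring on the median of all loci and after scaling to the same sum over coding loci, since Lars then lay inside the limit, 5 with an overlap of at least 0.8, which drops Mars, and 5 with the most abundant row at each position. A pseudocount of 1 FPKM, no filter, a minimum of 5 FPKM and leaving out restored cells gave 6. The mitochondrial count was 0 under every setting run. The cytosolic median log2 ratio ranged from -0.31 (without restored cells) to -0.14 (overlap of at least 0.8), and the difference of medians from -0.28 to -0.15. The limits of 1.2-fold, the overlap of 0.25 and the choice of the most abundant row were added after the data were seen. With no spread between libraries, a median was taken as moved where it shifted by 0.1 or more on the log2 scale. No paired analysis was possible because the table holds 1 pooled value per group, and for the same reason no library could be left out. Read depth is unknown, so the counting error of the less abundant genes, such as Ears2 and Wars2, cannot be given.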
